A study of Mus musculus with 6 samples.

Results

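The 10 transcription factors followed here specify and pattern progenitors of the neural tube: Sox1, Sox2, Sox3, Pax6, Olig2, Nkx6-1, Irx3, Dbx1, Neurog2 and Neurog1. They were chosen by name, as every array probe whose gene name in the scanner files is one of these. This gave 11 probes for 9 of the 10 genes, and all 9 entered the comparison of 19334 genes. Sox3 had no probe under that name and is not analysed here.

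The tissue was the anterior presomitic mesoderm with somites I to IV, dissected from C57BL/6J mouse embryos of both genotypes at embryonic day 9.5. Paraxis-/- embryos lack the transcription factor encoded by Tcf15, which somites need to become epithelial, and WT embryos carried no labelled mutation. Tissue of 5 embryos made a pool, and 3 Paraxis-/- pools were each hybridised against 1 of 3 WT pools on 2 two-colour arrays with the dyes swapped. The pairs are named A, B and C after their WT pool. The Paraxis-/- pool of pair B is labelled C in the study, and that of pair C is labelled B. Pair A lay on slide 1, and pairs B and C lay on slide 2. The labels do not say how much neural tube stayed with the dissected tissue. In such pooled tissue, fewer cells of a type and less RNA per cell cannot be told apart.

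The neural tube lies between the somites. Sonic hedgehog from the notochord and floor plate, and BMP and Wnt signals from the roof plate, divide its progenitors into stripes along the dorsoventral axis. Each stripe is marked by a combination of homeodomain and basic helix-loop-helix factors, many of which repress the factors of a neighbouring stripe. Sox1, Sox2 and Sox3 keep the cells as progenitors, and Neurog1 and Neurog2 drive them to become neurons. Retinoic acid from the somites promotes Pax6 expression and neuronal differentiation in vertebrate embryos, and FGF from the caudal end delays both.

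The labels held for the targeted gene. Tcf15 had log2 levels of 9.81, 9.76 and 9.71 in the Paraxis-/- pools of pairs A, B and C, against 15.04, 15.24 and 15.23 in the WT pools. The mean log2 ratio of Paraxis-/- over WT was -5.41 (SE 0.09, n = 3 pairs, limma adjusted p = 0.000532). Between 28683 and 31795 of 43379 gene spots per array were well above background in the Paraxis-/- channel, against 27080 to 30982 in the WT channel. Of 15 markers of paraxial mesoderm, the labelled tissue, 13 were measured in the comparison.

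No member passed the test between the genotypes over the 3 pairs. Of the 9 tested members, 0 passed the limma threshold of 0.05 on the adjusted p, and the adjusted p-values lay between 0.953 and 0.997. Over all genes, 4 of 19334 passed, or 0.0207%. At an unadjusted p under 0.05 the count was also 0 of 9 members, against 980 of all genes, or 5.07%. The mean log2 ratio was above 0 for 6 members and below 0 for 3, with a median of 0.09, against 0.00 over all genes. The 95% intervals of 8 members lay between -0.74 and 0.69, whereas the interval of Dbx1 ran from -1.75 to 1.93. For every one of the 9 members the levels of the 3 Paraxis-/- pools overlapped those of the 3 WT pools. Over all genes, the levels did not overlap for 1153 of 19261, or 5.99%.

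The means hide pair ratios of opposite sign. In pair A the Paraxis-/- pool was lower than its WT partner for 7 members and higher for 2, with a median log2 ratio of -0.29. In pair B it was higher for all 9, with a median of 0.11, and in pair C it was higher for all 9, with a median of 0.21. Sox1 in pair C is the exception under other settings, at -0.05 with Agilent's processed signals or the deposited ratios and at -0.0009 with the pairing from the descriptions. The medians over all 19261 genes with 3 pairs were -0.00, 0.01 and -0.00 in the same pairs. A ratio below 0 in pair A and above 0 in pairs B and C was found for 7 of 9 members, against 13.8% of all genes. The reverse order was found for 0 of 9 members, against 11.4% of all genes. This pattern was noticed in these data, and the members were chosen with earlier results known, so the count is a description with no test.

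**Figure D1:**
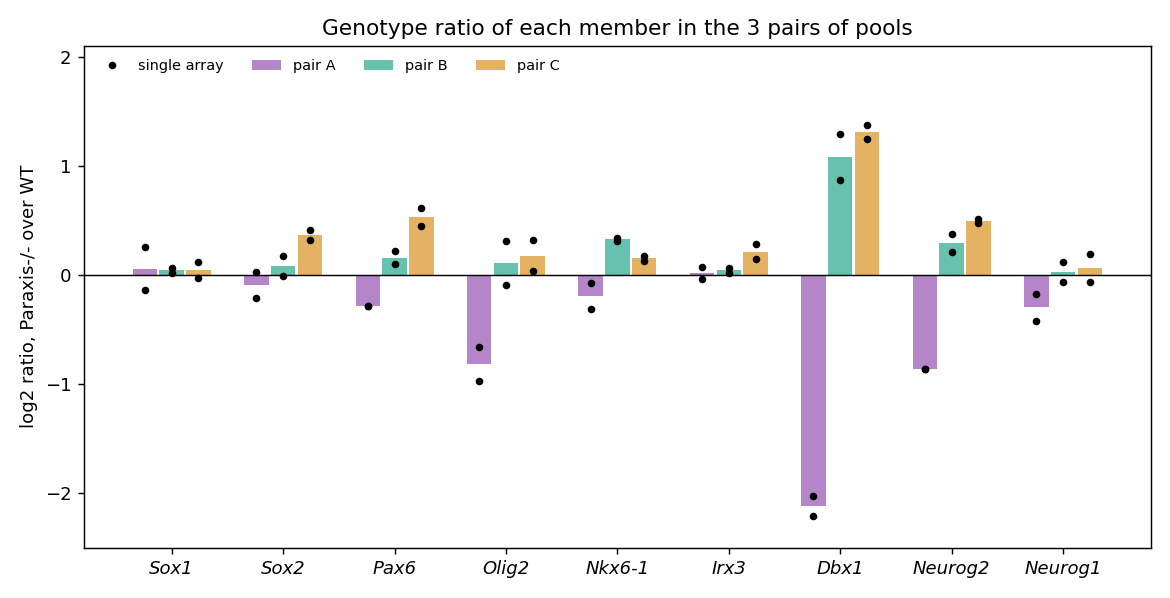
Log2 ratio of Paraxis-/- over WT for each of the 9 measured members in pairs A, B and C. Bars are the mean of both dye-swapped arrays of a pair, and dots are the single arrays. Dbx1, Neurog2 and Olig2 were at -2.12, -0.86 and -0.82 in pair A and above 0 in pairs B and C.

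Sox2 and Sox1 are the general progenitor factors among the members. Sox2 had log2 levels of 11.82, 11.42 and 11.81 in the Paraxis-/- pools of pairs A, B and C, against 11.91, 11.34 and 11.44 in the WT pools. Its pair ratios were -0.09, 0.08 and 0.37 on the log2 scale, with a mean of 0.12 (SE 0.11, n = 3 pairs, limma adjusted p = 0.955). Both pools of pair A and the Paraxis-/- pool of pair C were high, and the other 3 pools were low, so the levels do not sort by genotype. Without pair C the mean was -0.0045. The Sox2 probe lies at chr3:34550773-34550832 of the mm9 build, on the forward strand.

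Sox1, the member of this subfamily most restricted to neural tissue, had levels of 7.03, 6.97 and 7.02 in the Paraxis-/- pools, against 6.97, 6.92 and 6.97 in the WT pools. The 6 pools differed little, although the Paraxis-/- pool was the higher of its pair each time, by 0.06, 0.04 and 0.05. Single arrays of a pair differed by up to 0.40 log2 units, more than these differences. Among the members, Sox1 alone had a smaller spread between pairs (0.01) than between dye-swapped arrays. Its signal was near the lower end of the measured scale, where the dimmest spots well above background had levels of 5.38 to 6.12 in the Paraxis-/- channels and 5.60 to 6.31 in the WT channels. The offset added to the signal shrinks ratios there, and with an offset of 10 in place of 50 the pair ratios of Sox1 were 0.07, 0.07 and 0.08. With Agilent's processed signals they were -0.0092, 0.15 and -0.05, so the signs in pairs A and C depend on the processing. The probe maps to chr8:12397120-12397179, forward strand.

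Pax6 marks progenitors of most dorsoventral levels outside the floor plate and the stripe next to it. It had levels of 9.70, 9.35 and 9.70 in the Paraxis-/- pools of pairs A, B and C, against 9.99, 9.19 and 9.17 in the WT pools. The 3 Paraxis-/- pools were close together (9.58 ± 0.20, SD, n = 3), whereas the WT pool of pair A stood above the other WT pools (9.45 ± 0.46, SD, n = 3). The pair ratios were -0.29, 0.16 and 0.53, with a mean of 0.13 (SE 0.16, limma adjusted p = 0.970), and without pair C the mean was -0.06.

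The Pax6 probe is printed 10 times on the array, which gives an error within each array. Over the 9 or 10 spots used, both arrays of pair A gave a log2 ratio of -0.29 ± 0.05 (SD over spots). The arrays of pair B gave 0.10 ± 0.06 and 0.22 ± 0.06, and those of pair C gave 0.45 ± 0.05 and 0.61 ± 0.11. Every spot of pair A lay below 0 and every spot of pairs B and C above it. These spots share an extract, so they measure the precision of the hybridisation and not the spread between pools. The probe's mapped span is chr2:105535591-105536463, forward strand. A second Pax6 probe, spanning chr2:105524098-105524949, exceeded background clearly in 0 of 12 measurements and was left out.

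Nkx6-1 acts in ventral progenitors, including those of motor neurons. Its levels were 12.51, 12.59 and 12.34 in the Paraxis-/- pools, against 12.70, 12.27 and 12.19 in the WT pools. The WT pool of pair A was again the highest of the 6, and the other 2 WT pools were the lowest. The pair ratios were -0.19, 0.33 and 0.15, with a mean of 0.10 (SE 0.12, limma adjusted p = 0.970), and without pair B the mean was -0.02. The probe maps to chr5:102088323-102088382, reverse strand.

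Olig2 specifies motor neuron progenitors in the ventral neural tube. It had levels of 9.28, 9.46 and 9.53 in the Paraxis-/- pools, against 10.09, 9.35 and 9.35 in the WT pools. A single pool, the WT pool of pair A, stood apart, and the other 5 lay between 9.28 and 9.53. The pair ratios were -0.82, 0.11 and 0.18, with a mean of -0.18 (SE 0.22, limma adjusted p = 0.970), and without pair A the mean was 0.14. On single arrays the ratio was -0.66 and -0.97 in pair A, 0.32 and -0.09 in pair B, and 0.32 and 0.03 in pair C. Both arrays of pair A thus lay below all 4 others, whereas the small positive ratios of pairs B and C were no larger than the difference between their own arrays. In every pair the array with WT in Cy5 gave the higher ratio, so this difference went with the dye. The mean of both arrays offsets a dye effect that is equal on both.

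This probe lies at chr16:91228470-91228529, forward strand. A dimmer Olig2 probe at chr16:91227115-91227174 was well above background in 4 of 6 Paraxis-/- and 5 of 6 WT measurements. Its pair ratios were -0.18, 0.08 and -0.01, with levels of 6.53, 6.64 and 6.45 in the Paraxis-/- pools and 6.71, 6.56 and 6.47 in the WT pools. The probes share the negative sign in pair A but differ in size, and in pair C they differ in sign.

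Dbx1 marks a narrow stripe of progenitors near the middle of the dorsoventral axis, and it changed most among the members from pair to pair. Its levels were 8.62, 10.02 and 9.90 in the Paraxis-/- pools of pairs A, B and C, against 10.74, 8.93 and 8.58 in the WT pools. The order of the genotypes was thus turned over between pair A and the other pairs. Relative to its WT partner, the Paraxis-/- pool had 0.230 of the signal in pair A, 2.12 times the signal in pair B and 2.49 times the signal in pair C.

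The log2 ratios behind these folds were -2.12, 1.08 and 1.31, with single arrays at -2.21 and -2.02, at 0.87 and 1.30, and at 1.25 and 1.38. Ranked among 19261 genes, Dbx1 was number 10 from the lowest ratio in pair A, number 30 from the highest in pair B and number 9 from the highest in pair C. The mean was 0.09 (SE 0.71, limma adjusted p = 0.995). Without pair A the mean was 1.20 (limma adjusted p = 0.114), without pair B it was -0.40 and without pair C it was -0.52. With the slide as a block it was -0.46, since pair A, alone on slide 1, then counts as much as pairs B and C together. The error of that fit comes from pairs B and C only, so no p is given for it. The Dbx1 probe maps to chr7:56887073-56887132, reverse strand.

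Irx3, a factor of intermediate and dorsal progenitors, showed another order of pools. Its levels were 6.94, 7.65 and 7.87 in the Paraxis-/- pools, against 6.92, 7.61 and 7.65 in the WT pools. Both pools of pair A, the pair on slide 1, were low, and the 4 pools of slide 2 were high. The pair ratios were 0.02, 0.04 and 0.21, with a mean of 0.09 (SE 0.08, limma adjusted p = 0.953). The level thus followed the slide or the pair rather than the genotype, and these cannot be told apart. The probe maps to chr8:94322759-94322818, reverse strand.

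Neurog2 and Neurog1 are proneural factors that start neuronal differentiation. Neurog2 had levels of 10.13, 10.45 and 10.42 in the Paraxis-/- pools, against 10.99, 10.16 and 9.93 in the WT pools. The WT pool of pair A was the highest and the WT pool of pair C the lowest of the 6, with the 3 Paraxis-/- pools between them. The pair ratios were -0.86, 0.29 and 0.49, and both arrays of pair A gave -0.86. The mean was -0.03 (SE 0.28, limma adjusted p = 0.997), and without pair A it was 0.39 (adjusted p = 0.654). The mean also changed sign when ratios were scaled between arrays (0.04) or centred on the array median in place of loess (0.05). The Neurog2 probe maps to chr3:127337805-127337864, forward strand.

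Neurog1 had levels of 7.35, 7.58 and 7.57 in the Paraxis-/- pools, against 7.65, 7.55 and 7.51 in the WT pools. The WT pool of pair A was the highest and its Paraxis-/- partner the lowest, and the 4 pools of slide 2 lay between them. The pair ratios were -0.30, 0.03 and 0.06, with a mean of -0.07 (SE 0.10, limma adjusted p = 0.976), and without pair A the mean was 0.05. The single arrays of pairs B and C lay on either side of 0, and in every pair the array with Paraxis-/- in Cy5 gave the higher ratio. Its probe, at chr13:56352641-56352700 on the reverse strand, was dim, and with Agilent's own processed signals the ratio in pair A was -0.44. No annotation of mm9 was used here, so whether a probe lies in a coding exon or an untranslated region is not given for any member.

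**Figure D2:**
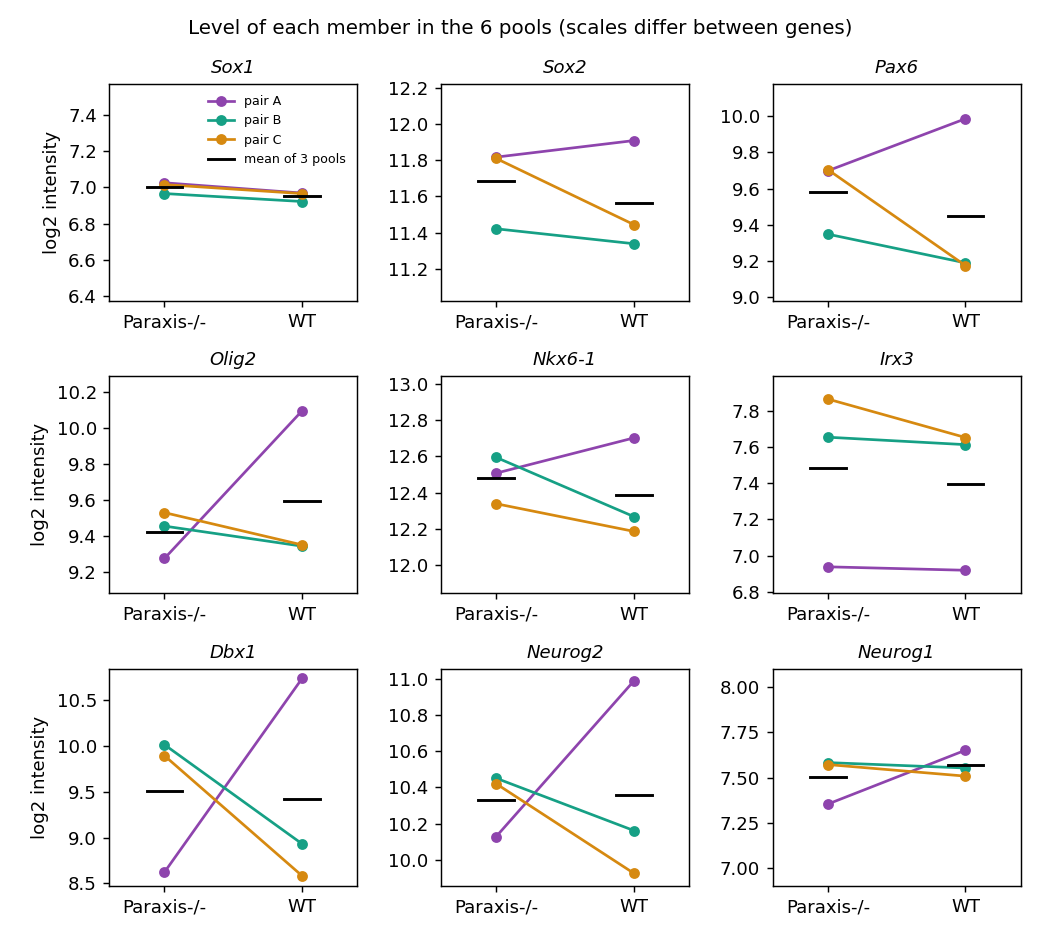
Log2 intensity of each measured member in the Paraxis-/- pools and the WT pools, with a line for each pair and a black bar for the mean of 3 pools. The scale differs between panels, since levels of different probes cannot be compared. For Dbx1, Olig2, Neurog2, Neurog1, Pax6, Nkx6-1 and Sox2 the line of pair A slopes the opposite way from those of pairs B and C.

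In all 12 measurements the brightest probe of each of these 9 members was well above background, and none was saturated. Each member was also given an exact two-sided sign-flip permutation test, which over 3 pairs cannot give a p below 0.25. Sox1 and Irx3, whose sign was the same in every pair, had that p. The exact p was 0.75 or 1 for the other 7.

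The spread between pairs was compared with the difference between dye-swapped arrays, which holds the error of the hybridisation and any dye effect of the gene. The range of the 3 pair ratios was larger than the largest difference between dye-swapped arrays for 8 of 9 members. For Dbx1 the range was 3.43 log2 units against a largest dye-swap difference of 0.43, and for Neurog2 it was 1.35 against 0.17. For Olig2 the range was 0.99 against 0.41, and for Pax6 it was 0.82 against 0.17. The median range was 0.52 over the members and 0.26 over all genes.

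A limma F test of differences among the 3 pair ratios, added after the data were seen, called 4 of 9 members. It fitted a dye effect for each gene and took what remained between dye-swapped arrays as error. Over all genes it called 1541 of 19261, or 8%. The adjusted p was 0.000439 for Dbx1, 0.00551 for Neurog2, 0.0096 for Olig2 and 0.0235 for Pax6. The adjusted p-values of Nkx6-1 (0.0909), Neurog1 (0.127), Sox2 (0.177), Irx3 (0.475) and Sox1 (0.998) did not pass. With Agilent's processed signals Pax6 did not pass either (adjusted p = 0.063). The test sets the spread between pairs against the error of the dye swaps after the dye effect and does not compare genotypes. Pair A is the only pair on slide 1, read with another Feature Extraction version, so its pools and its slide cannot be told apart for any member.

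**Figure D3:**
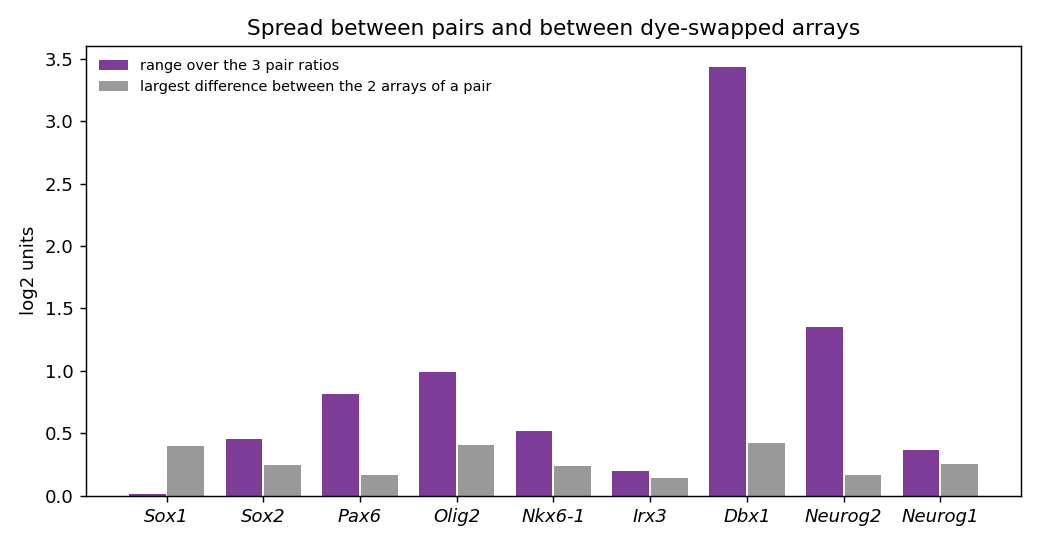
Range over the 3 pair ratios (purple) and largest difference between dye-swapped arrays of a pair (grey) for each measured member, in log2 units. The range exceeds the dye-swap difference for all members but Sox1, and it is 3.43 log2 units for Dbx1.

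Of the 9 measured members, 3 were at least 1.5-fold lower in the Paraxis-/- pool of pair A, namely Dbx1, Neurog2 and Olig2, against 2.1% of all genes. The 250 bases before the RefSeq start of each are shown, as the members with the lowest ratios in pair A, written 5′ to 3′ in the direction of transcription, in the GRCm38.p6 build of the RefSeq promoter table. Capitals mark TATAAA and CCAAT, promoter letters, on either strand. The windows are chr7:49636836-49637085 on the reverse strand for Dbx1, chr3:127632886-127633135 on the forward strand for Neurog2 and chr16:91225300-91225549 on the forward strand for Olig2.
Dbx1: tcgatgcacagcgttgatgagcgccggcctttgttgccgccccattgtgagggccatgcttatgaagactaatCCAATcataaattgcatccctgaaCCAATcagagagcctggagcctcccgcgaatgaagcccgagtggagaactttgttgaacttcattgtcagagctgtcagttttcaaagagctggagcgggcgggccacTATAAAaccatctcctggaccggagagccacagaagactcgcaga
Neurog2: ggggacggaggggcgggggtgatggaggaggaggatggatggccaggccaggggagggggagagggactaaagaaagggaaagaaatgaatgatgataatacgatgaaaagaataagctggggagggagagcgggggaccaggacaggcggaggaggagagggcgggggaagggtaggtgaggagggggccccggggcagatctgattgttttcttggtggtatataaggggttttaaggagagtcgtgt
Olig2: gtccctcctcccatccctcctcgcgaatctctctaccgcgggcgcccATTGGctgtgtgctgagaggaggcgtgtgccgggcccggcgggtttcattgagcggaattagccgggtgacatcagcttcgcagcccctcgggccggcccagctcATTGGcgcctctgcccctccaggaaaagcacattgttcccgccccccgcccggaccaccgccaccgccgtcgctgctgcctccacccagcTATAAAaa

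The windows of Dbx1 and Olig2 each hold TATAAA once and CCAAT, counting both strands, in 2 places, and that of Neurog2 holds neither. The matches do not overlap in these windows. TATAAA was found in 2 of the 10 windows of the 9 members in the table, against 12.4% of 32851 windows of all genes. CCAAT was found in 6 of the 10, against 33.8%. CANNTG, the E-box letters that basic helix-loop-helix factors bind, was searched because Paraxis, Olig2 and the neurogenins belong to that class. It reads the same on both strands and was found in 1 of the 10 windows, the second window of Pax6, against 66.2% of all windows. No binding was measured in these windows, and the counts describe letters only.

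The mean level of the 9 members, each centred on its own mean over the 6 pools, summarises their order across pools. It was -0.16, 0.07 and 0.15 in the Paraxis-/- pools of pairs A, B and C, against 0.35, -0.17 and -0.23 in the WT pools. The WT pools held both the highest and the lowest value, so the spread within WT exceeded that within Paraxis-/-. Each member was also set against the mean of the other 8 over the 6 pools. Pearson's r was 0.95 for Neurog2, 0.94 for Dbx1 and 0.86 for Olig2, and lay between 0.52 and 0.69 for Neurog1, Pax6, Nkx6-1 and Sox2. It was 0.12 for Sox1 and -0.39 for Irx3. These values describe 6 pools that share slides and arrays, and no p is given. Levels were centred but not scaled, so Dbx1, the member that varied most, weighed most in the mean of the 9 members. For each other member, Dbx1 also weighed most in the mean of the other 8.

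Among 2722 other genes whose levels had an SD of at least 0.3 over the pools, 6 were named as most like the mean of the members. They were Rhbdl3 (r = 0.99), Srgap3 (0.97), Abcc8 (0.96), Shisa3 (0.95), Dpep1 (0.95) and Tppp3 (0.95). Rhbdl3, a rhomboid-like membrane protein gene, had levels of 8.16, 8.66 and 8.87 in the Paraxis-/- pools, against 9.34, 8.35 and 8.10 in the WT pools. Srgap3, a regulator of the cytoskeleton, had 10.60, 10.76 and 11.12 in the Paraxis-/- pools, against 11.79, 10.41 and 10.31 in the WT pools. All 6 genes had a ratio below 0 in pair A, from -1.19 for Srgap3 to -0.72 for Dpep1, and above 0 in pairs B and C. They were chosen by their likeness to this mean, in which Dbx1 weighed most, so their shared signs are no separate result.

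Other factors of the progenitor stripes were measured for 16 of 22 listed genes. With 0 of 16 past the adjusted threshold, 3 were higher and 1 lower at an unadjusted p under 0.05. The 3 higher genes were Msx2, a dorsal factor (log2 ratio 0.32), Nkx2-9, a factor next to the floor plate (0.19), and Irx5 (0.17), with limma adjusted p-values of 0.817 to 0.950. The pattern of pair A below 0 and pairs B and C above 0 was shown by 6 of 16. The medians of this list were -0.03, 0.11 and 0.12 in pairs A, B and C. The following genes of this list were all named after their values were seen. Pax7, a dorsal progenitor factor, had pair ratios of -0.85, 0.26 and 0.13, and Nkx2-2, a ventral factor, had -0.29, 0.06 and 0.34. Dbx2, which shares the stripe of Dbx1 and extends beyond it, had -0.04, 0.33 and 0.48. Olig1 had -0.65, -0.04 and 0.05, and did not show the pattern.

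General neural progenitor genes were measured for 20 of 20 listed genes, and 0 passed the adjusted threshold. At an unadjusted p under 0.05, 2 were higher and 1 lower. Lhx2 had a mean log2 ratio of 0.50 (SE 0.10, limma adjusted p = 0.576), Lfng of 0.23 and Ptprz1 of -0.41. The dye-swapped arrays of Ptprz1 differed by 1.47 log2 units on average, more than its ratio in any pair. Only 3 of 20 showed the members' pattern. Fabp7, a fatty acid binding protein of neural progenitors and radial glia, had levels of 7.97, 9.44 and 8.90 in the Paraxis-/- pools, against 9.97, 9.42 and 9.12 in the WT pools. Its pair ratios of -2.01, 0.02 and -0.22 shared the low value of pair A, without clearly positive values in pairs B and C. Nes, the gene of the progenitor filament nestin, named after its values were seen, had pair ratios of -0.76, 0.10 and -0.12.

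Neurogenin targets and early neuronal genes were measured for 25 of 30 listed genes. With 0 of 25 past the adjusted threshold, 1 was higher at an unadjusted p under 0.05, namely Cbfa2t3, a transcriptional corepressor (log2 ratio 0.36, SE 0.12, limma adjusted p = 0.933). The next by p were Nefl (0.33), Stmn2 (0.27) and Lhx1 (0.43). The members' pattern was shown by 12 of 25 genes, and the reverse by 4, with medians of -0.16, 0.12 and 0.07 in pairs A, B and C.

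Genes of this list moved both ways in pair A, and the following were named after their values were seen. Nhlh1, a helix-loop-helix gene of newly formed neurons, had pair ratios of -1.17, 0.40 and 0.39, and Elavl3, an RNA-binding protein of early neurons, had -1.19, 0.23 and -0.03. Insm1, a zinc finger factor of newly formed neurons, had -0.73, 0.12 and -0.02. In contrast, Dll1, a Notch ligand, had 0.66, -0.40 and 0.06, and Dll3 had 1.62, -0.19 and 0.06. Both ligands are also expressed in the presomitic mesoderm. The interneuron factor Evx1 had 0.93, -0.21 and -0.05, and Lhx5 had 0.80, -0.11 and -0.02.

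The ventral and dorsal signals that pattern the stripes were measured too. Floor plate, notochord and hedgehog genes were measured for 11 of 12 listed genes, with 0 past the adjusted threshold and 0 showing the members' pattern. Ptch1, the hedgehog receptor and a target of the pathway, had pair ratios of 0.34, 0.32 and 0.23, with a mean of 0.29 (SE 0.07, limma adjusted p = 0.770). Ntn1, an axon guidance cue of the floor plate, had -0.29, -0.71 and -0.64, with a mean of -0.55 (SE 0.10, limma adjusted p = 0.571), although its dye-swapped arrays differed by up to 1.19 log2 units. The ligand Shh had 0.12, -0.01 and 0.39, and the floor plate factor Foxa2 had 0.49, 0.02 and 0.05. Of 9 measured roof plate and dorsal signals, 0 passed the adjusted threshold and 3 showed the members' pattern, with medians of -0.02, 0.10 and 0.10 in pairs A, B and C. Wnt3a, a roof plate ligand that is also active in the caudal end, was among the 3, with pair ratios of -0.08, 0.17 and 0.37. Bmp7 had a mean log2 ratio of 0.34 (SE 0.07, limma adjusted p = 0.671) with the same sign in all pairs. The means of Lmx1b and Rspo1 were 0.09 and -0.29.

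Markers of other cell types that could lie in the dissected tissue moved with the pairs too. Neural crest markers were measured for 10 of 10 listed genes, with 0 past the adjusted threshold, and 8 of the 10 showed the members' pattern. The median over these markers stood at -0.55 in pair A and at 0.23 in each of pairs B and C, as log2 ratios. Their mean level ranged from 9.57 to 9.90 in the Paraxis-/- pools, against 9.58 to 10.12 in the WT pools, with the WT pool of pair A highest. Sox10, a defining factor of migrating crest, had levels of 8.84, 9.36 and 9.29 in the Paraxis-/- pools, against 10.66, 8.996 and 8.84 in the WT pools. Snai2, also a crest factor and named after its values were seen, had pair ratios of -1.03, 0.50 and 0.29. The receptor gene Ngfr departed from the rest with 0.52, 0.64 and 0.76 (limma adjusted p = 0.319), whereas Ets1 was low in pair A (-0.55) and near 0 otherwise.

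Caudal progenitor genes moved the opposite way in pair A. Of 10 measured genes of 10 listed, 0 passed the adjusted threshold and 0 showed the members' pattern, while 4 showed the reverse. All 10 were above 0 in pair A and below 0 in pair B, and 6 were above 0 in pair C, with medians of 0.67, -0.41 and 0.14. Their mean level ranged from 9.46 to 10.38 in the Paraxis-/- pools, against 9.17 to 9.91 in the WT pools.

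The largest of these differences belonged to caudal homeobox genes, which are active in the tail end of the embryo. Cdx2, named after its values were seen, had levels of 13.81, 12.36 and 11.91 in the Paraxis-/- pools, against 10.701, 12.87 and 12.72 in the WT pools. Cdx4 had 10.22, 8.92 and 9.545 in the Paraxis-/- pools, against 7.46, 9.58 and 9.27 in the WT pools. Nkx1-2, a gene of neuromesodermal progenitors, had 10.01, 8.63 and 9.45 in the Paraxis-/- pools, against 8.16, 9.52 and 9.04 in the WT pools. In pair A, therefore, the Paraxis-/- pool had the highest and the WT pool the lowest level of all 6 for each of these genes, while Dbx1 was highest in that WT pool. In pair C the signs of Cdx4 and Nkx1-2 matched those of the members instead of opposing them. Hes3 and Wnt5b, the remaining genes by p, had 0.72 and 0.45 in pair A. Whether the axial level of the dissection, or the share of neural tube or crest, had a part in the members' ratios was not tested.

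**Figure D4:**
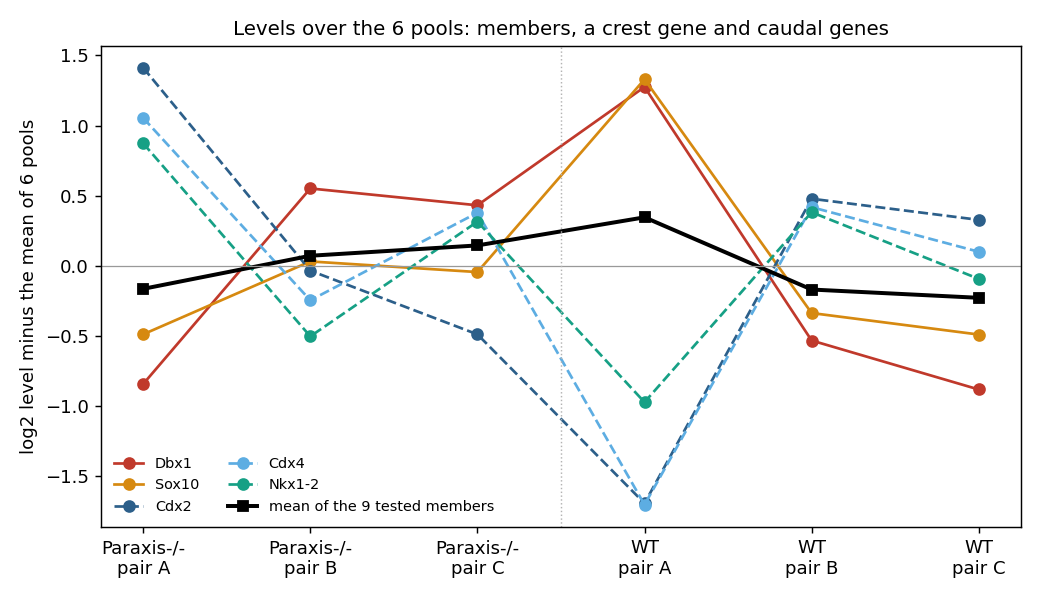
Log2 level minus the mean over 6 pools for the mean of the 9 measured members (black), Dbx1, the crest gene Sox10 and the caudal genes Cdx2, Cdx4 and Nkx1-2, in the Paraxis-/- pools (left) and the WT pools (right). The WT pool of pair A is highest for the members, Dbx1 and Sox10 and lowest for the caudal genes.

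Paraxial mesoderm markers did not share the members' pattern of signs, which 0 of the 13 measured genes showed. Their median log2 ratio was below 0 in each pair (-0.07, -0.49 and -0.37), and the genes below 0 numbered 7 of 13 for pair A, 13 for pair B and 9 for pair C. Of 13 measured genes of 15 listed, 7 were lower and 0 higher at an unadjusted p under 0.05, with 0 past the adjusted threshold. Their mean level ranged from 10.47 to 10.60 in the Paraxis-/- pools, against 10.79 to 11.07 in the WT pools. Meox2 had a mean log2 ratio of -1.59 (SE 0.15, limma adjusted p = 0.187), Tbx18 of -1.02, Aldh1a2, which makes retinoic acid, of -0.82, and Uncx of -0.78. These 4, named for the smallest p, were below 0 in all 3 pairs, whereas 6 of the 13 were above 0 in pair A.

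**Figure D5:**
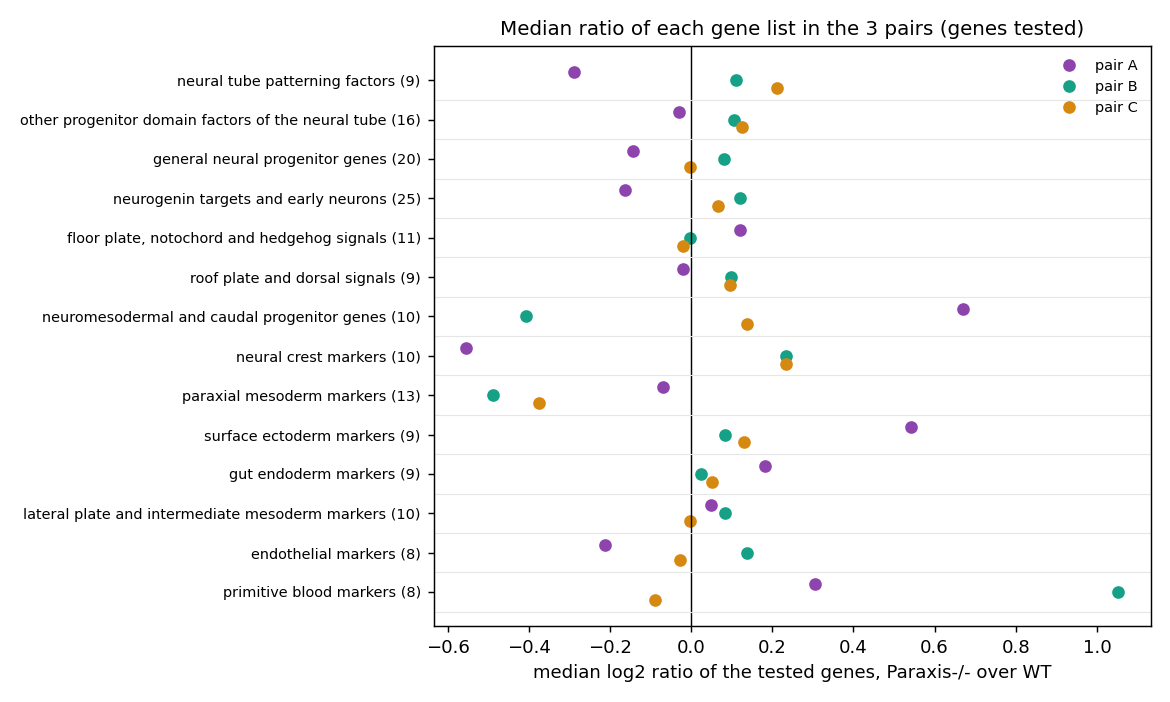
Median log2 ratio of Paraxis-/- over WT for the measured genes of each list in pairs A, B and C, with the number of genes in brackets. The medians of the members and of the neural crest markers are below 0 in pair A and above 0 in pairs B and C. Those of the other progenitor domain factors, the neurogenin targets and early neurons, and the roof plate and dorsal signals share these signs. The medians of the caudal progenitor genes are 0.67 in pair A and -0.41 in pair B.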

How the data were processed

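Agilent Feature Extraction read the spot intensity, version 10.7.3.1 for slide 1 and 10.5.1.1 for slide 2 per the file headers; version 8.5.1.1 stands in the submitters' processing notes. The deposited matrix holds log10 ratios of Cy5 over Cy3 with a median of 0 on each array, equal to those of the scanner files within 5e-11. Per the labels' protocols, 250 ng of RNA with an integrity number of at least 7.9 was labelled for each pool.

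The median intensity and local background were corrected by normexp (offset 50) and normalized by loess within each array (limma 3.58.1, R 4.3.3). The plan named mean intensities, but the files of slide 2 give medians. The 1639 control spots and 438 to 620 outlier spots per array had no weight in loess, outlier spots were then left out, and replicate spots were averaged. Ratios were turned to Paraxis-/- over WT, and both arrays of a pair were averaged. Pool levels are log2 values after loess and Aquantile. A probe was kept if either genotype had it well above background in 4 or more of its 6 measurements (28637 of 41174), and the brightest kept probe stood for its gene. Names were updated through a RefSeq listing. The mean of the 3 pair ratios was set against 0 in a two-sided limma fit (lmFit, eBayes), and p-values of 19334 genes were adjusted by Benjamini-Hochberg, 73 of them with fewer than 3 pairs. The fits were tested on simulated data.

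The pairing comes from the titles, which name both pools of every array; the descriptions name other pools for 2 arrays. Across genes, dye-swapped arrays of a titled pair had r of 0.37, 0.22 and 0.50. The labels call the pools biological replicates. The number of arrays limits the precision.

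The members and the 13 other lists were chosen with earlier results of these data known. The rule named all members, Tcf15, up to 4 genes of each list with the smallest p, and the 6 genes most like the members; other genes are said to be named after their values were seen. Another 15 settings were tried, and the F test among pairs and the count of the members' pattern were added. Some genes of the lists are not reported here by name.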

Additional observations from a re-analysis of the deposited data

How the results depend on the processing

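No member passed the adjusted threshold under any of the 15 alternatives, and the median log2 ratio of the members stayed between 0.02 and 0.11 where no pair was left out. Without 1 pair it ranged from -0.06 to 0.22. Of 135 ratios of single members under an alternative, 124 kept their sign and 11 did not. Many of the 124 could not differ. The settings of probe filter, replicate block and pairing left every member's mean ratio as it was. Averaging all kept probes changed only that of Olig2. The deposited ratios repeat Agilent's processed signals, so they are no separate alternative. With the slide as a block, Dbx1 was at -0.46. Neurog2 was at 0.043 with ratios scaled between arrays and at 0.050 with median centring. Leaving out 1 pair moved the lowest and highest ratios of the members with a change of sign to -0.0045 and 0.22 for Sox2, -0.065 and 0.34 for Pax6, -0.35 and 0.14 for Olig2, -0.021 and 0.24 for Nkx6-1, -0.52 and 1.20 for Dbx1, -0.29 and 0.39 for Neurog2, and -0.13 and 0.047 for Neurog1; the fits without a pair rest on 2 pairs. The count of all genes past the threshold, 4 in the comparison reported, was 18 with scaled ratios, 96 with no replicate block, 84 with the replicate pair as a random block and 76 with the slide as a block, and it ranged from 0 to 2 without 1 pair; fits without the pair as the replicate count both arrays of the same extracts. The pattern of pair A below 0 and pairs B and C above 0 held for 7 of 9 members under each of 6 alternatives. These change the pair ratios, but the processed signals and the deposited ratios among them give the same values. With median centring Irx3 (-0.03 in pair A) took the place of Sox2 (0.04). The F test among pairs called 4 members with an offset of 10 and with scaled ratios, and 3 with processed signals. The dim signal of Sox1, Irx3 and Neurog1 limits what their ratios can show.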

Other observations

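Markers of tissues outside the nervous system and the somites were measured in the same pools. None of these lists had a gene past the adjusted threshold of limma. Surface ectoderm markers were measured for 9 of 10 listed genes, and all 9 had a mean ratio above 0, with medians of 0.54, 0.08 and 0.13 in pairs A, B and C. Tfap2c, a factor of early ectoderm, had a mean log2 ratio of 0.43 (SE 0.13, limma adjusted p = 0.933), and the keratin gene Krt18 had pair ratios of 1.04, 0.08 and 0.13. Primitive blood markers were measured for 8 of 8 listed genes, with medians of 0.31, 1.05 and -0.09. The erythroid factor Tal1 had a mean log2 ratio of 0.80 (SE 0.11, limma adjusted p = 0.366), and the embryonic globin gene Hba-x had levels of 15.27, 14.70 and 14.32 in the Paraxis-/- pools, against 14.93, 13.60 and 14.10 in the WT pools.

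Endothelial markers were measured for 8 of 8 listed genes, with medians of -0.21, 0.14 and -0.03, and 2 of them showed the members' pattern. Kdr, a receptor of vascular growth factors, had pair ratios of 0.09, 0.81 and 0.43. Gut endoderm markers (9 of 10 measured) had medians of 0.18, 0.02 and 0.05, with Sox17 at a mean of 0.29. Lateral plate and intermediate mesoderm markers (10 of 10 measured) had medians of 0.05, 0.08 and -0.00, with the limb field factor Tbx5 at a mean of 0.50 (SE 0.08, limma adjusted p = 0.473).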
